A study of Mus musculus with 6 samples.

Results

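Plexins and semaphorins were examined in splenic B cells that had been cultured with or without CpG DNA. The genes described are 9 of the 23420 genes in the deposited tables, 4 plexins (Plxnd1, Plxnc1, Plxna1 and Plxnb2) and 5 semaphorins (Sema7a, Sema4a, Sema4b, Sema4c and Sema4d). They were chosen by symbol, with the difference between CpG-stimulated and unstimulated samples already known. That difference is therefore given for these genes as a description, without a test.

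Bead-purified splenic B cells came from 3 WT BALB/c mice aged 7 to 11 weeks. The CpG group was cultured for 4 hours at 10 M cells per mL with 10 μg/mL of CpG, a synthetic DNA ligand of TLR9, and the unstimulated group without it. Each group holds 3 RNA-seq samples numbered 1 to 3, where 1 and 2 are from females and 3 from a male. Neither group carries an engineered allele, and no other agent, dose or time was measured in these samples. Values are log2 CPM as deposited (counts of reads per gene, scaled to a common total), which correspond to about 17.8 M reads per sample after the authors' quantile normalization. On this scale 10 reads are at -0.76, 3 reads, taken as the limit of detection, at -2.35, and no reads at -5.15. Because quantile normalization fixes the distribution of values, the actual depth of each sample is unknown and a change in RNA per cell cannot be seen. In such bulk samples, fewer cells of a type and less RNA per cell cannot be told apart.

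Plexins are single-pass receptors of the cell surface, and most semaphorins are the ligands that bind them. An active plexin acts on small GTPases of the Ras and Rap families through its cytoplasmic GTPase-activating domain, which loosens integrin adhesion and remodels actin. The system is best known for axon guidance, and in the immune system it guides cell contact and migration. Class 4 semaphorins are transmembrane proteins, whereas SEMA7A is held in the membrane by a lipid anchor. SEMA7A binds plexin C1 and integrins that contain the β1 chain, SEMA4D binds B-class plexins and, on B cells, CD72, and SEMA4C binds plexin B2. Plexin D1 is a receptor for SEMA3E and also binds SEMA4A. Plexin A1 pairs with neuropilins to receive class 3 semaphorins and also receives SEMA6D.

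Sequences around the annotated start sites are shown for the gene with the largest rise and for those with a κB match, because κB factors act downstream of TLR9. All are taken from RefSeq (GRCm38.p6), which had 16 start sites for 8 of the 9 genes and none for Plxna1. Each run has 300 bases, 250 before and 50 after the start site, written 5′ to 3′ on the strand of the gene. Capitals mark matches, on either strand, to the κB consensus or to TGANTCA, the core motif of AP-1 factors. The windows are chr6:115994956-115995255 (minus strand) for Plxnd1, chr7:80186620-80186919 (plus strand) for Sema4b, chr3:88459052-88459351 (minus strand) for Sema4a and chr1:36558332-36558631 (minus strand) for Sema4c.
Plxnd1: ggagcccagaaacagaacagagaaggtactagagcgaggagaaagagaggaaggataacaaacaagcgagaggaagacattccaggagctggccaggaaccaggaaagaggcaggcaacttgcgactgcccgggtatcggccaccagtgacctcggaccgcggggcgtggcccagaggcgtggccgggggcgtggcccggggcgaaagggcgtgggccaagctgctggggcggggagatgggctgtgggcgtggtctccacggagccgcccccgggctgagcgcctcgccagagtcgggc
Sema4b: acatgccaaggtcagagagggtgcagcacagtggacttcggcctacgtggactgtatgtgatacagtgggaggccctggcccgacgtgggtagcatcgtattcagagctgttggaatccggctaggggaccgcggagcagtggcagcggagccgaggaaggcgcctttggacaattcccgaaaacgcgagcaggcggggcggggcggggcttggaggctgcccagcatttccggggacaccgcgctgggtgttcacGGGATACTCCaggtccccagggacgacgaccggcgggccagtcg
Sema4a: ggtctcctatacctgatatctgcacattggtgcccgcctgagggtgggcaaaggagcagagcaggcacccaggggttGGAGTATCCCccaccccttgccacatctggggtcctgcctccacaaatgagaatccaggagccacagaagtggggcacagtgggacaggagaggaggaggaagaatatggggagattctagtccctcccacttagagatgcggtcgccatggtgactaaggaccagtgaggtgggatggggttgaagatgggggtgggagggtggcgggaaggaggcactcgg
Sema4c: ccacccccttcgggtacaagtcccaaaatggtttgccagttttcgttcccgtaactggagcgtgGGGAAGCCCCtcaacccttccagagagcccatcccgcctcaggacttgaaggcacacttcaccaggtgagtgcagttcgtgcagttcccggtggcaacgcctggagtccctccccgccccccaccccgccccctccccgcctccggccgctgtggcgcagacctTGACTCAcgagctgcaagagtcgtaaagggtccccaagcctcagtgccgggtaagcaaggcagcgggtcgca

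The κB consensus was found in 3 of the 16 windows, those of Sema4a, Sema4b and Sema4c printed here, and in 8.46% of all 32851 promoter windows of this length. The match of Sema4b lies 6 to 15 bases after the start site and reads GGGATACTCC, and the match of Sema4a reads the same on its opposite strand. TGANTCA occurred in 2 windows, that of Sema4c at 22 to 16 bases before the start and one of Sema4d, against 7.81% of all windows. CACGTG, the E-box bound by MYC, occurred in 1 window, the second of Sema4b, against 7.15%. A κB match was thus seen beside a semaphorin that fell as well as beside some that rose, and the window of Plxnd1 had no match to any of these motifs. Such a match is a description of the letters and no evidence of binding. The windows of these genes had 51.0% to 71.7% G and C, with a median of 63.0%, against 52.7% for all windows.

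After 4 hours with CpG, all 4 plexins were higher, and the semaphorins were split. Plxnd1, Plxna1, Plxnc1 and Plxnb2 differed by 1.02 to 4.00 on the log2 scale. Sema7a, Sema4a and Sema4c were higher and Sema4b and Sema4d lower. In none of the 9 genes did the ranges of the 2 groups overlap, with 7 higher and 2 lower in every CpG sample. Among the 11233 genes tested, 39.1% were higher and 38.6% lower in every CpG sample. Of the 9 genes 8 passed the filter on low values (10 reads in at least 3 samples), all but Sema4c. Of these 8, 6 had a log2 difference over 1, where 16.0% of all tested genes did, and 2 one under -1, where 15.5% did. These shares are printed beside the counts only for orientation, since the genes were chosen on this contrast. The median difference of the 9 genes was 2.29, or 1.57 with Sema4c set to its lower limit, and the median over all tested genes was 0.00330.

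**Figure D1:**
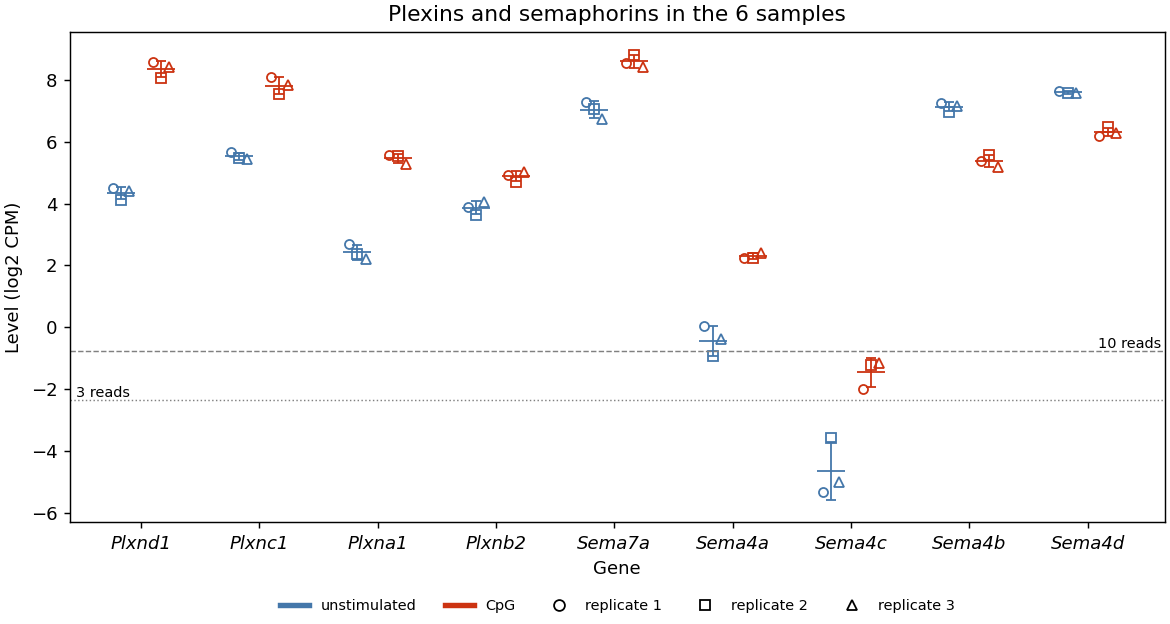
Level of each plexin and semaphorin (log2 CPM, y axis) in the unstimulated (blue) and CpG (red) samples, with a symbol for each replicate number and the mean ± SD of 3 samples as bars. The red points lie above the blue ones for 7 genes and below them for Sema4b and Sema4d, and only Sema4c and 1 unstimulated sample of Sema4a lie under the dashed line of 10 reads.

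Plxnd1, which encodes the receptor plexin D1, lies on the minus strand of chromosome 6 of GRCm38 from 115954811 to 115995005 (ENSMUSG00000030123.15). Its level was 4.52, 4.13 and 4.39 log2 CPM in unstimulated replicates 1, 2 and 3 and 8.56, 8.04 and 8.42 after CpG. The groups were thus 3.52 apart at their nearest samples. The mean rose from 4.34 ± 0.20 to 8.34 ± 0.27 (SD, n = 3 per group), a log2 difference of 4.00 or 16.0-fold, the 35th largest of all tested genes. On the linear scale its level went from 17.4 to 22.9 CPM to between 263 and 378 CPM. Samples of the same number differed by 4.05, 3.92 and 4.04, so the size of the difference was nearly the same in each.

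Plxnc1 encodes plexin C1, the plexin that binds SEMA7A, and spans 94790866 to 94944835 on the minus strand of chromosome 10. It was at 5.65, 5.47 and 5.45 log2 CPM without CpG and at 8.08, 7.53 and 7.82 with it. All CpG samples lay at least 1.88 above the highest unstimulated one. Its mean went from 5.52 ± 0.11 to 7.81 ± 0.28 (SD, n = 3), a log2 difference of 2.29 or 4.88-fold.

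Plxna1 (plexin A1) is on the minus strand of chromosome 6 as well, from 89316314 to 89362620. Its values were 2.70, 2.37 and 2.21 log2 CPM in unstimulated samples and 5.56, 5.53 and 5.27 after CpG. The groups were 2.58 apart at their nearest samples, with means of 5.45 ± 0.16 and 2.42 ± 0.25 (SD, n = 3). The log2 difference was 3.03 or 8.17-fold, and leaving out single samples gave 2.92 to 3.17. A pair of annotated noncoding genes, Gm26811 and Gm44207, overlap it on the opposite strand. The study's methods name a stranded library kit, and whether counting used the strand is not given in the sources used here.

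Plxnb2 encodes plexin B2, a receptor of class 4 semaphorins, and lies on the minus strand of chromosome 15 from 89155549 to 89180788. It had the smallest difference of the 9 genes. Its levels of 3.89, 3.64 and 4.06 log2 CPM without CpG compared with 4.93, 4.70 and 5.03 with CpG, and the nearest samples of the groups were 0.63 apart. The log2 difference of 1.02 (2.03-fold, means 3.86 ± 0.21 and 4.88 ± 0.17, SD, n = 3) ran from 0.91 to 1.12 with single samples left out. It lay under 1 in the pair of replicate 3, at 0.97.

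Sema7a, the ligand of plexin C1, is on the plus strand of chromosome 9 from 57940112 to 57962865. It was at 7.29, 7.06 and 6.73 log2 CPM in unstimulated samples and at 8.55, 8.81 and 8.42 after CpG. All CpG samples lay at least 1.13 above the highest unstimulated one. The mean increased from 7.03 ± 0.28 to 8.59 ± 0.20 (SD, n = 3), a log2 difference of 1.57 or 2.96-fold. A ligand and its plexin were thus both higher after CpG in the same cultures, Sema7a by 1.26, 1.75 and 1.68 in replicates 1, 2 and 3 and Plxnc1 by 2.43, 2.05 and 2.37.

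Sema4a, which encodes a class 4 semaphorin that binds plexin D1, spans 88435959 to 88461182 on the minus strand of chromosome 3. Its unstimulated values of 0.036, -0.93 and -0.38 log2 CPM are close to the level of 10 reads, and replicate 2 was below it. After CpG it was at 2.25, 2.23 and 2.40, which is narrow compared with the unstimulated spread. The log2 difference was 2.72 or 6.59-fold (means -0.42 ± 0.48 and 2.30 ± 0.095, SD, n = 3), and 1.75 on the scale of log2(CPM + 1). At such a low level the size of the difference depends on the scale. Its direction could not differ between the 2 scales, since the groups do not overlap.

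Sema4c, the ligand of plexin B2, was barely detected. On the minus strand of chromosome 1 from 36548639 to 36558349, it had values of -5.32, -3.56 and -5.00 log2 CPM in unstimulated samples, all under 3 reads. After CpG it was at -1.99, -1.22 and -1.14, the worth of 3.97, 7.12 and 7.54 reads. With the unstimulated group set to 3 reads per library, the mean of the CpG samples was 1.86-fold higher, and CpG replicate 1 was nearest to that floor. This lower limit rests on few reads in the CpG samples too. On the scale of log2(CPM + 1) the difference of Sema4c was 0.39. Some values lie below the level of no reads, and the deposited values carry a shift per replicate number. D430040D24Rik overlaps Sema4c on the opposite strand, and without strand their reads cannot be told apart.

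The remaining pair of semaphorins moved the other way. Sema4b lies on the plus strand of chromosome 7 from 80186841 to 80226527 and encodes a further transmembrane semaphorin. It was at 7.24, 6.97 and 7.16 log2 CPM without CpG and at 5.38, 5.57 and 5.19 with it. Every CpG sample was at least 1.40 below the lowest unstimulated one. The mean fell from 7.12 ± 0.14 to 5.38 ± 0.19 (SD, n = 3), a log2 difference of -1.74 or 3.35-fold lower. Replicate 2 had the smallest drop, 1.40, against -1.87 and -1.96 for the differences in replicates 1 and 3.

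Sema4d encodes CD100, the ligand of CD72, and spans 51685529 to 51793747 on the minus strand of chromosome 13. Its unstimulated values of 7.64, 7.56 and 7.56 log2 CPM were the most uniform of the 9 genes. After CpG they were 6.19, 6.46 and 6.28, again all below the unstimulated range. The log2 difference was -1.28 or 2.43-fold lower (means 7.59 ± 0.046 and 6.31 ± 0.14, SD, n = 3). Leaving out single samples gave -1.36 to -1.22.

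**Figure D2:**
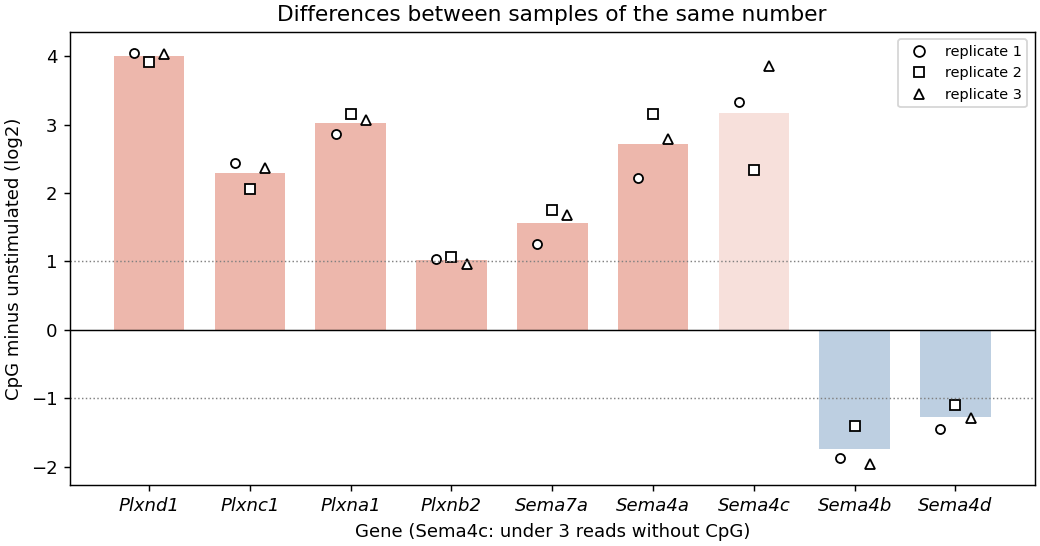
Difference between the CpG and the unstimulated sample of the same replicate number (log2, y axis) for each gene (x axis), with bars at their mean and dotted lines at 1 and -1. The 3 points of Plxnd1 lie between 3.92 and 4.05, those of Sema4a and Sema4c are spread most widely, and those of Sema4b and Sema4d are all below -1.

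Differences between replicates were larger for these genes than for a typical gene. The SD between replicates, pooled over the groups, had a median of 0.21 in the 9 genes and of 0.13 in all tested genes, and 8 of the 9 were above the latter. Sema4d was the exception, at 0.10. Sema4c, at 0.74, is under the filter and so not among the tested genes. Of the rest, Sema4a lay at percentile 87.6 of the tested genes and the others between 63.4 and 78.0. Plxnd1, Plxnc1, Plxnb2 and Sema4a were lowest in CpG replicate 2, whereas Sema7a, Sema4b and Sema4d were highest there. Among unstimulated samples, 7 of the 8 genes above the filter were highest in replicate 1, and Plxnb2 was highest in replicate 3. Since values carry a shift per replicate number, differences between numbers may be part of the normalization, and their source was not tested.

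Levels of different genes were compared per length, as log2 CPM per kb of the longest coding transcript of GENCODE M21. In unstimulated cells Sema4d (5.42), Sema7a (5.31) and Sema4b (5.14) led the order, with ranges that overlapped between neighbours. Plxnc1 followed at 2.66, then Plxnd1 (1.55) and Plxnb2 (1.16), whose ranges overlapped, and then Plxna1 (-0.75), Sema4a (-2.10) and Sema4c. After CpG Sema7a was first at 6.87, followed without overlap of the ranges by Plxnd1 (5.55), Plxnc1 (4.94), Sema4d (4.14) and Sema4b (3.40). Plxna1 (2.28) and Plxnb2 (2.18) overlapped, and Sema4a (0.61) and Sema4c were again last. The plexins D1 and C1 thus passed Sema4b and Sema4d in this order. The same order was found in both groups with the median length of the coding transcripts, although the length of Plxnd1 then changes most, from 6907 to 3803.5 bases.

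**Figure D3:**
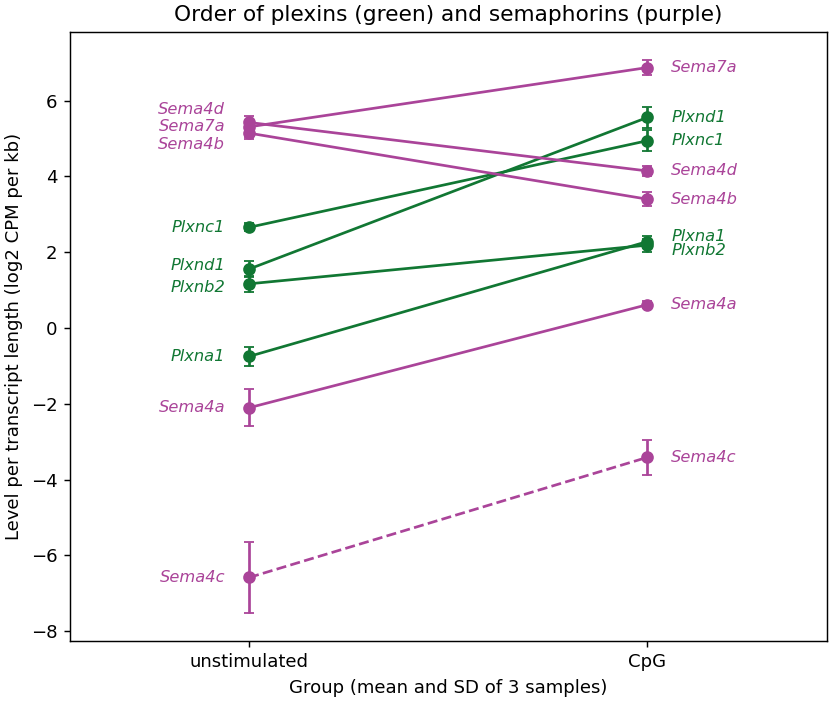
Mean level per transcript length (log2 CPM per kb, y axis) of 4 plexins (green) and 5 semaphorins (purple) in unstimulated and CpG samples, with SD of 3 samples as bars. Lines of Plxnd1 and Plxnc1 cross those of Sema4d and Sema4b, and Sema7a separates from the latter pair; the dashed line is Sema4c, under the limit of detection without CpG.

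Summed over the genes described, the 4 plexins together took 94.4, 79.5 and 85.9 CPM in unstimulated replicates 1, 2 and 3 and 727, 520 and 641 CPM after CpG. The 5 semaphorins together took 508, 447 and 439 CPM before and 494, 590 and 461 CPM after, so their ranges overlapped. Per length, however, the semaphorin sum was 131, 114 and 111 CPM per kb without and 142, 170 and 132 CPM per kb with CpG, and these ranges did not overlap. The plexin sum per length was 13.2, 11.1 and 12.1 CPM per kb without and 102, 72.5 and 90.0 CPM per kb with CpG. Both sums per length were thus higher in every CpG sample, for the semaphorins narrowly (131 against 132 CPM per kb at the nearest samples). Shares of single genes in these sums differed as well. Sema7a held 33.6% ± 3.91 of the summed semaphorin level without CpG and 79.7% ± 1.0 with it (SD, n = 3). Sema4d went from 36.3% ± 2.04 to 12% ± 0.93 and Sema4b from 29.9% ± 2.49 to 7.18% ± 0.214. Within the plexins, the share of Plxnd1 was 24.3% ± 1.35 without and 53.9% ± 1.34 with CpG, and that of Plxnc1 52.1% ± 2.70 and 35.2% ± 1.10. Plxnb2 went from 18.6% ± 2.31 to 5.23% ± 0.547 as the others rose more. These shares follow from the same values as the differences and are not a separate line of evidence.

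The 9 genes are part of families of 29 genes, 9 plexins and 20 semaphorins, all of which are in the tables. Of the other 20 genes, 15 did not pass the filter on low values, among them the plexins Plxna2, Plxna4, Plxnb1 and Plxnb3 and the plexin D1 ligand Sema3e, which was under 3 reads in all 6 samples. Sema5b was at the level of no reads in all 6. The 5 others could be tested with limma, with Benjamini-Hochberg adjustment (FDR) over all 11233 genes. Sema6b, a transmembrane semaphorin of class 6, was lowered. It was at -0.67, 0.31 and 0.41 log2 CPM without CpG and at -2.06, -2.30 and -3.45 with it, a log2 difference of -2.62 (standard error 0.54, FDR = 0.00144). It passed the filter through the unstimulated samples alone, and every CpG sample was under 10 reads, so the size of its difference is uncertain. On the scale of log2(CPM + 1) the difference was -0.79, which is not past -1, and with 10 reads required in every sample it was not tested. The other 4 did not pass a log2 difference of 1. Sema3b, a secreted semaphorin, differed by 0.80 with overlapping groups (standard error 0.33, FDR = 0.0480, or 0.0636 with the replicate number as a block). Plxna3, the plexin A3 receptor of class 3 semaphorins, differed by 0.53 (standard error 0.22, FDR = 0.0528). Sema4g (0.12, FDR = 0.649) and Sema5a (0.022, FDR = 0.947) had overlapping groups and standard errors of 0.23 and 0.27. For comparison, 74.3% of all tested genes had an FDR under 0.05, 37.6% higher and 36.7% lower after CpG. These 20 are what remained after the 9 were taken on this contrast, so their count is not that of an unselected family.

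**Figure D4:**
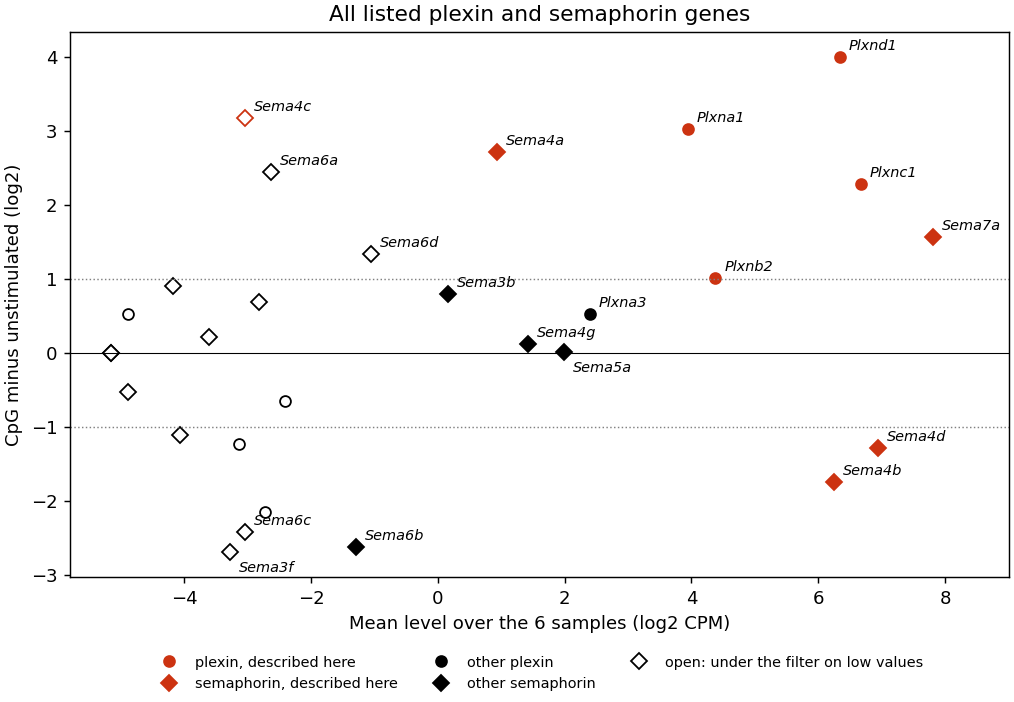
Difference between groups (log2, y axis) against the mean level of the 6 samples (log2 CPM, x axis) for all 29 plexin (circles) and semaphorin (diamonds) genes, the 9 described here in red and genes under the filter on low values open. Most of the red symbols lie to the right of the black ones, and the open symbols, which rest on few reads, spread widely.

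The proteins that work with plexins and semaphorins were compared between the groups as well, in 4 lists of 58 genes, of which 41 passed the filter. With limma, a log2 difference over 1 and a Benjamini-Hochberg FDR under 0.05 were required, and 6 of the 41 (14.6%) were raised and 11 (26.8%) lowered. Of all genes tested, 15.8% were raised and 15.3% lowered. The lists were chosen with earlier results of these data known, so these shares are given only for orientation. The median difference of the 41 genes was -0.34, against 0.00330 for all tested genes.

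Among the coreceptors and other receptors of semaphorins, 2 of 7 tested genes were raised, 1 was lowered, and the median difference was 0.76. Met, a receptor tyrosine kinase that associates with B-class plexins, rose from 1.87, 1.63 and 0.84 to 3.98, 3.59 and 3.63 log2 CPM. Its log2 difference was 2.29 (standard error 0.25, FDR = 1.42e-05, limma). Timd2, which encodes TIM-2, a receptor for SEMA4A, rose by 1.51 (standard error 0.34, FDR = 0.00238), and by 0.85 on the scale of log2(CPM + 1), where it was under a difference of 1. Its ligand Sema4a was higher after CpG too. L1cam, an adhesion molecule in receptors for SEMA3A, fell from 3.98, 4.69 and 4.39 to 2.62, 3.31 and 3.24 (log2 difference -1.30, standard error 0.21, FDR = 0.000292).

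Of this list, 3 genes passed the FDR with a log2 difference under 1. Cd72, the inhibitory B cell receptor for SEMA4D, was at 8.87, 8.78 and 8.80 log2 CPM without CpG and 9.52, 9.68 and 9.53 with it (log2 difference 0.76, standard error 0.066, FDR = 2.98e-06). Its ligand Sema4d was lower in the same samples. Itgb1, the integrin β1 chain that receives SEMA7A, was at 6.87, 6.86 and 6.80 and at 7.77, 7.68 and 7.62 (log2 difference 0.85, standard error 0.061, FDR = 8.08e-07). Tyrobp, a signalling adaptor that works with plexin A1 in myeloid cells, differed by 0.64 (standard error 0.20, FDR = 0.0138). Nrp2, a neuropilin, differed by 0.29 with overlapping groups (standard error 0.18, FDR = 0.168). Nrp1, Itga1 and Trem2 were under the filter.

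Of 9 tested GTPases that plexins bind or switch, 3 were raised and 0 lowered past a log2 difference of 1, with an FDR under 0.05 in 4 more that were lower. Rnd3, which binds plexins, rose from -1.66, -2.44 and -1.86 to 1.14, 0.90 and 0.71 log2 CPM, a log2 difference of 2.90 (standard error 0.36, FDR = 4.12e-05). It passed the filter through the CpG samples alone, since all unstimulated values were under 10 reads, and its difference was 1.20 on the scale of log2(CPM + 1). Rras2, a relative of R-Ras, rose by 1.44 (standard error 0.061, FDR = 3.99e-08). Rap1b, a Rap GTPase that activates integrins, rose by 1.32 (standard error 0.077, FDR = 2.13e-07) to between 10.37 and 10.59 log2 CPM. The related Rap1a did not pass, at -0.11 with overlapping groups (standard error 0.086, FDR = 0.250). Rac1 (-0.64), Rhoa (-0.34), Rras (-0.51) and Rap2a (-0.97) passed the FDR with lower values after CpG.

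The effectors and adaptors that act below plexins were mostly lower. Of 22 tested genes 1 was raised and 9 were lowered, and the median difference was -0.72. Dpysl2, which encodes CRMP2, a microtubule regulator in the response to SEMA3A, fell from 3.74, 3.54 and 3.59 to 0.13, 0.44 and 0.71 log2 CPM, a log2 difference of -3.20 (standard error 0.18, FDR = 1.82e-07). Mical1, an actin-oxidizing enzyme that binds plexins, fell from 6.43, 6.51 and 6.60 to 3.55, 4.01 and 3.65, a log2 difference of -2.77 (standard error 0.12, FDR = 3.93e-08), and its relative Mical3 differed by -1.59. Sh3bp1, a GTPase-activating protein for Rac, was lowered (-1.98), as was Arhgef11, the exchange factor that couples B-class plexins to RhoA (-1.82). The lipid kinase Pip5k1c (-1.88) and the protein kinases Fes (-1.70), Gsk3b (-1.66) and Fyn (-1.04) were lowered too. The one gene that was raised was Limk1, the kinase of cofilin, at 1.13 (standard error 0.14, FDR = 4.61e-05). It lay at 0.99 without unstimulated replicate 2, and Fyn at -0.997 without CpG replicate 3. Gipc1, an adaptor of plexin D1, differed by 0.20 (standard error 0.082, FDR = 0.0514), and Ptpn6, the phosphatase SHP-1 recruited by CD72, by 0.075 (standard error 0.11, FDR = 0.564), and neither passed.

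Of the proteases that shed semaphorins or mature them, 3 were tested. Adam10 fell from 8.56, 8.43 and 8.57 to 7.16, 7.19 and 7.20 log2 CPM (log2 difference -1.33, standard error 0.060, FDR = 5.19e-08, limma). Adam17 was lower by a smaller step (-0.30, standard error 0.084, FDR = 0.00767) and Furin, which cleaves semaphorin precursors, was higher by 0.67 (standard error 0.069, FDR = 1.02e-05). Mmp14, which sheds SEMA4D, was under the filter.

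**Figure D5:**
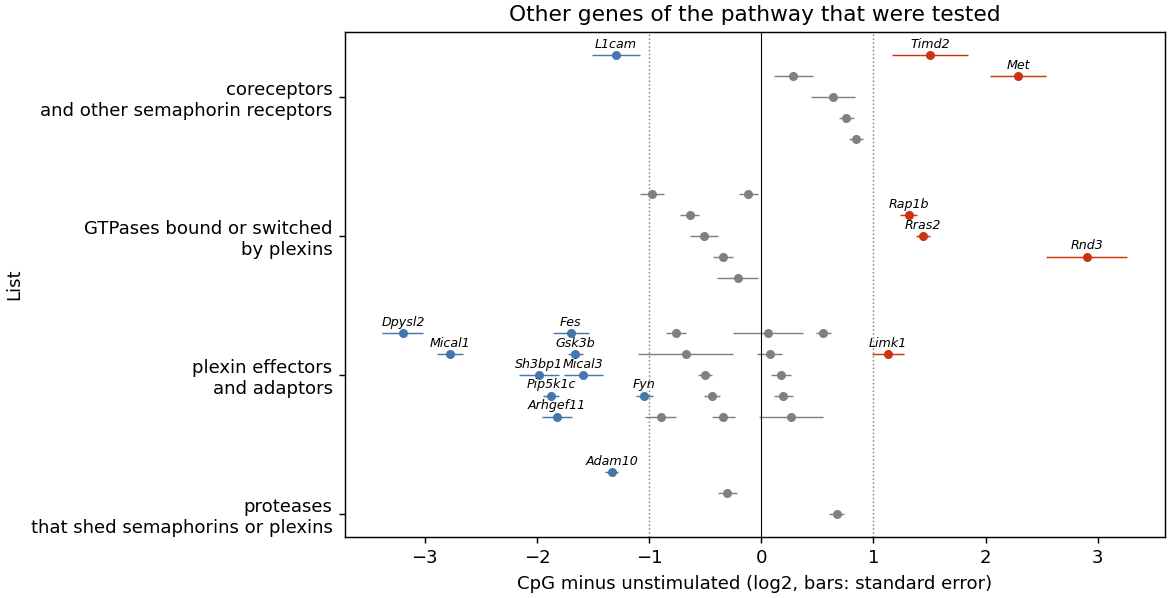
Difference between CpG and unstimulated samples (log2, x axis; bars are standard errors of the fit) for the 41 tested genes of 4 lists (y axis), red where raised and blue where lowered past a log2 difference of 1 and an FDR under 0.05. Red points are in the receptor and GTPase lists and at Limk1, and the effectors hold 9 of the 11 blue points.

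Over the 6 samples, the genes with the most similar profile to Plxnd1 were Bcl2l1, Slamf1 and 9330179D12Rik. Likeness was measured as the root mean square distance between the 6 values of each gene after its own mean was removed. The distances were 0.12, 0.19 and 0.22 on the log2 scale. For Sema4b, the gene with the largest fall of the 9, they were Mapre2 (0.070), Sh3bgrl (0.070) and L3mbtl3 (0.073). With 2 groups that differ strongly, such a profile is largely the difference between them.

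The labelled cell type was checked with marker genes. For B cells of the study's MRL/lpr mice, the methods describe bead depletion of cells with CD43, CD4, CD8, CD11b, CD11c or Gr-1, which would remove many T, myeloid and dendritic cells. For the BALB/c cells the labels give only that beads were used. All 8 B cell markers were above 10 reads, with a median of 8.91 log2 CPM. Their sum was 3950 to 4570 CPM without and 2950 to 3370 CPM with CpG. Of 7 T cell markers 2 were, Lck and Cd5 (sum 72.0 to 92.5 and 125 to 142 CPM), and Cd3e, Cd4 and Cd8a were under 3 reads in all 6 samples. Nearly all of the T cell sum was Lck (log2 difference 0.67), and Cd5 differed by -0.32. The 5 NK cell markers summed to 0.134 to 0.208 CPM without and 0.609 to 1.29 CPM with CpG, and none was above 10 reads on average over the 6 samples. Klrb1c had the values -4.27, -4.79 and -4.90 log2 CPM without and -0.84, 0.23 and 0.23 with CpG, above 10 reads in CpG replicates 2 and 3. The 4 platelet markers summed to 6.51 to 9.66 CPM without and 5.81 to 6.61 CPM with CpG. Myeloid markers summed to 11.8 to 17.3 CPM without and 19.6 to 26.1 CPM with CpG, and 4 of 6 were above 10 reads. The higher sum lay in Cd68 and Adgre1 (log2 differences 1.11 and 0.83), while Csf1r (-1.61) and S100a8 (-2.7) were lower. Lyz2 and Itgam differed by -0.21 and -0.066. Dendritic cell markers, from a cell type that also uses plexins and semaphorins, summed to 32.3 to 39.2 CPM without and 90.6 to 106 CPM with CpG. This sum was carried by Zbtb46 and Flt3 (log2 differences 1.62 and 1.33). Ccr9 was the only other one of the 7 above 10 reads on average, and it was lower (-0.94). Clec9a (-0.76), Xcr1 (-0.59), Itgax (0.63) and Siglech (0.97) were under 10 reads on average. Endothelial markers summed to 99.9 to 105 CPM without and 134 to 157 CPM with CpG, nearly all of it Pecam1. Their part in the values of plexins and semaphorins was not tested. Erythroid markers ranged from 384 to 4910 CPM and were highest in replicate 2 of both groups. Without both samples of that number the median difference of the 9 genes was 2.40, Sema4b differed by -1.91, and the counts of raised and lowered genes in the lists, families included, were 6 and 13, against 6 and 12.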

How the data were processed

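RNA-seq values of 6 samples were used, 3 CpG-stimulated and 3 unstimulated. Per the labels and the paper's methods, the authors trimmed reads with Trim Galore 0.6.5, aligned them to mm10 with STAR 2.6.1a, counted them per gene with featureCounts (Subread 2.0.1), and transformed the counts with voom after quantile normalization. What the authors deposited is log2 CPM, with an offset of 0.5 reads. Library size, and with it the levels of 3 and 10 reads, was computed from the most common value, -5.152, taken as that of no reads. Depth of single samples is unknown. Such limits cover counting error only.

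Genes with a value over that of 10 reads in at least 3 samples (11233) were compared with limma 3.58.1 (lmFit, eBayes with a trend) in R 4.3.3 and adjusted by the Benjamini-Hochberg method. The fit was tested on simulated data. The members and lists were chosen with earlier results of these data known, so members were not tested. Named genes are the members, list genes past the thresholds, with others of the lists given by value, and the 3 nearest profiles of 2 members. List symbols were matched through RefSeq synonyms where needed.

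Samples of the same number deviated together (r = 0.435, 0.224 and 0.300, between -0.281 and 0.028 for other pairs). The labels name 3 mice, and the numbers were taken as pairs where differences are given by replicate. The main fit had no term for the number, so its standard errors and FDR values are unpaired. Only the alternative with a block used the number. Between 2709 and 2958 genes had equal values, other than that of no reads, in same-numbered samples, against 490 to 586 for other pairs. The values themselves thus carry a shift by number, which can also make same-numbered samples deviate together. The r values therefore cannot show which samples share a mouse. P values measure the spread between these samples in the deposited values, which include the shift by number. Alternatives covered the filter, scale, trend, block, centring and single samples. Promoters came from RefSeq (GRCm38.p6), gene positions and lengths from GENCODE M21 (GRCm38).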

Additional observations from a re-analysis of the deposited data

How the results depend on the processing

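Counts of raised and lowered genes, over all genes and over the lists, stayed within 1.5 times under every alternative run. With the replicate number as a block, 1784 genes were raised and 1728 lowered, against 1778 and 1723, and in the lists, families included, the counts were 6 and 12 as without it. The block changed no call past both thresholds in the lists, and the FDR of Sema3b was 0.0636 with it. The median difference of the 9 genes moved from 2.29 to 1.56 on the scale of log2(CPM + 1), which shrinks differences of low genes by construction. Their median level per length, with each gene averaged over both groups, moved from 3.55 to 3.80 log2 CPM per kb with the median length of the coding transcripts. Of 90 values of the 9 genes under alternatives, 86 moved by less than the SD between replicates, 4 by more and 0 changed sign. With samples left out or on log2(CPM + 1) the sign could not change, since the groups of these genes do not overlap. The block leaves these differences as they are by construction. The raised list genes numbered 4 with 10 reads required in every sample, where Rnd3 and Timd2 were not tested. On log2(CPM + 1) they numbered 5, without Timd2, and 11 were lowered, without Sema6b (-0.79). Without the filter 13 were lowered, with Sema3f added (-2.69, FDR = 0.0204 from limma). Without single samples, Limk1 fell under a log2 difference of 1 and Fyn rose above -1, while Sema3b (1.04), Rap2a (-1.01 and -1.02) and Farp1 (-1.08) passed. Leaving out both samples of number 2 was chosen after seeing the data.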
